A study of Azumapecten farreri with 9 samples.

Results

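Lines named after a hairpin arm with no registered mature form were examined in the small RNA of hemocytes, the circulating immune cells of Azumapecten farreri, the Zhikong scallop (Chlamys farreri). These are the lines of the deposited table whose name carries the mark p5 or p3 and is not one of the predicted names starting with PC-, without the let-7 and mir-1990 names. They numbered 30 of 417 lines, and were set against 180 lines with a registered name and 204 predicted lines. The hemocytes came from scallops injected with LPS exosomes, with normal exosomes or with phosphate-buffered saline (PBS), with 3 libraries per group. LPS is lipopolysaccharide, a bacterial cell wall component, and the exosomes of that group are tied to its stimulation in the labels. Exosomes are membrane vesicles that cells release. The labels name no age, strain or pooling of the scallops, nor the source of the exosomes, and do not tell whether each library stands for its own animals. The p-values therefore cover the spread among these libraries alone, and that spread may be technical.

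A miRNA is cut from a hairpin RNA. Drosha and Dicer release a duplex of both arms, 1 strand is kept in Argonaute and guides it to target mRNAs by its seed (bases 2 to 8), and the other strand is mostly degraded. miRBase, the registry of miRNAs, lists for some hairpins the kept strand only, and reads from the other arm then have no registered name. Sequencing of small RNA also picks up pieces of tRNA, rRNA and other structural RNAs. The labels' protocols state that such families were filtered from the reads.

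The lines came under 15 hairpin numbers and 9 species prefixes. Of the 30 lines, 26 carried a vertebrate prefix (mmu for mouse, ssc for pig, efu for the big brown bat, eca for horse, bta for cow, gmo for cod), 1 carried cel for the nematode Caenorhabditis elegans, and 3 carried a mollusc or annelid prefix (lgi for Lottia gigantea, cte for Capitella teleta). By name, 16 lines were from a 5′ arm and 14 from a 3′ arm. A substitution mark such as 1ss8TC, which tells how the scallop sequence differs from the registered hairpin, stood in 20 names. The 30 lines held 27 distinct sequences and 21 separate measurements, since lines of a hairpin often carried the same value in every library. Of the lines, 6 repeated a sequence under both a p5 and a p3 name, as 3 sequences in all. A further 9 lines had values identical to those of a different sequence of the same hairpin, as 3 measurements.

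The sequences that carried most of the signal are shown here, 5′ to 3′ as DNA letters from the deposited table, with the seed in capitals. The first 2 held most of the signal, and the next 3 were the only others abundant enough to test.
cel-mir-5592-1-p3_1ss8TC: tTCCCGGCcgatgcacca
mmu-mir-6240-p5 (also listed as mmu-mir-6240-p3): gTGATTTCtgcccagtgctct
efu-mir-9277-p5: tCGTGGCCgagtggttaag
efu-mir-9277-p3: cCCCGCGCaggttcgaatcctg
mmu-mir-3102-p3_1ss8GT: cAGGGTGTggctgggtggtg
The 5 seeds differed from each other. The seed of mmu-mir-6240-p5 recurred in 1 other sequence of the table, the predicted line PC-3p-4131_335, and the other 4 seeds recurred in none.

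The 3 lines with a mollusc or annelid prefix are shown because their hairpin families are found in lophotrochozoans, with the registered 3′ arm of miR-87 and the registered miR-1991 line for comparison.
lgi-mir-87-p5_1ss15AC: gTGCCTGAaattttcgctcaaacct
mle-miR-87-3p_1ss21TG: gTGAGCAAagtttcaggtgtgt
lgi-mir-1991-p3: tTCTCGTTtcacagggtatatt
hru-miR-1991_1ss11TA: cTTACCCTgtaaatcggagaagt
cte-mir-33-p3_1ss8CT: cAGTGCTTctgcagtgcaatc
RNAduplex, which folds 2 strands against each other, paired lgi-mir-87-p5_1ss15AC with mle-miR-87-3p_1ss21TG over 17 base pairs at -22.8 kcal/mol, leaving 4 bases of the 5′ arm and 3 of the 3′ arm free at their 3′ ends. It paired lgi-mir-1991-p3 with hru-miR-1991_1ss11TA over 17 base pairs at -18.2 kcal/mol. For efu-mir-9277-p5 against efu-mir-9277-p3 it found 11 base pairs at -12.8 kcal/mol. No registered miR-33 line stood in the table beside cte-mir-33-p3_1ss8CT, so that arm could not be paired.

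Several other lines went against their arm names. The lines below are shown because sequences named as opposite arms, or as an unregistered arm and a registered miRNA, overlap each other. Capitals mark the shared letters.
mir-6236 stretch: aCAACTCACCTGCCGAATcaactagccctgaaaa
mir-1285 stretch: tagtAGTGGGATCGCGCCcgtgaat
mir-9341 stretch: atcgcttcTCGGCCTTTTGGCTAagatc
bta-miR-11987_L-1_1ss8TA: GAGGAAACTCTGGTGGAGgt
The 6 mir-6236 lines fell into 2 stretches, of 34 and 21 bases, when an overlap of at least 10 bases was asked for. The letters cctgaaaa end the longer stretch and begin the shorter one, so the split rests on that minimum. In the longer one, mmu-mir-6236-p5 and mmu-mir-6236-p3_3 shared the 17 bases in capitals although their names put them on opposite arms. All 3 sequences of the 4 mir-1285 lines, of which 2 names read p5 and 2 read p3, shared 14 bases within a 25-base stretch. The 3 mir-9341 lines were nested within each other, and the longest shared 15 bases with the registered efu-miR-9341_L-2R+1. The line bta-mir-11987-p5_1ss7TA was the first 18 bases of the registered bta-miR-11987_L-1_1ss8TA, so it was a shorter form of that line and not its other arm. The label of an arm without a registered form was thus not contradicted by the letters of the miR-87 and miR-1991 lines, which paired with their registered line. It did not hold for the mir-9341 and mir-11987 lines, whose letters overlap their registered line. For the mir-6236 and mir-1285 lines whose letters overlap under p5 and p3 names, the arm names conflict, and no registered line stood beside them. The mir-6240 and mir-8969 sequences, each listed under both arm names, could not be given an arm.

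As background from vertebrate RNAs, the letters of several lines are familiar from structural RNAs. The mir-6236, mir-6240 and mir-11987 letters are those of stretches of the large-subunit rRNA, the mir-9341 letters those of the 5′ end of the U2 small nuclear RNA, the mir-1285 letters those of the signal recognition particle RNA, and the mir-9277 and mir-8969 letters those of serine and glycine tRNAs. The sequence of cel-mir-5592-1-p3_1ss8TC ends in CCA (ttcccggccgatgcaCCA), the bases that cells add to the 3′ end of tRNAs, and efu-mir-9277-p3 holds GGTTCGA (ccccgcgcaGGTTCGAatcctg), letters typical of the T arm of tRNAs. Of all 396 distinct sequences of the table, 3.28% ended in CCA, and 0.505% held GGTTCGA on either strand. No reference of structural RNAs was used here, and which scallop RNA each line came from was not tested.

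The unregistered arm sequences were short. Of the 27 distinct sequences, 13 (48.1%) had 18 bases, the shortest length in the table, against 6.17% of 162 registered and 6.86% of 204 predicted sequences. Lengths of 21 to 23 bases, the usual size of a miRNA, made up 33.3% of them, against 70.4% of the registered and 51.0% of the predicted sequences. A first base of T, frequent among miRNAs, was found in 18.5% of the 27 sequences, against 59.9% of the registered and 55.9% of the predicted ones. The mean GC content was 54.9%, against 47.3% and 47.8%. These shares were not tested, because sequences of a hairpin overlap and are not independent.

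**Figure D1:**
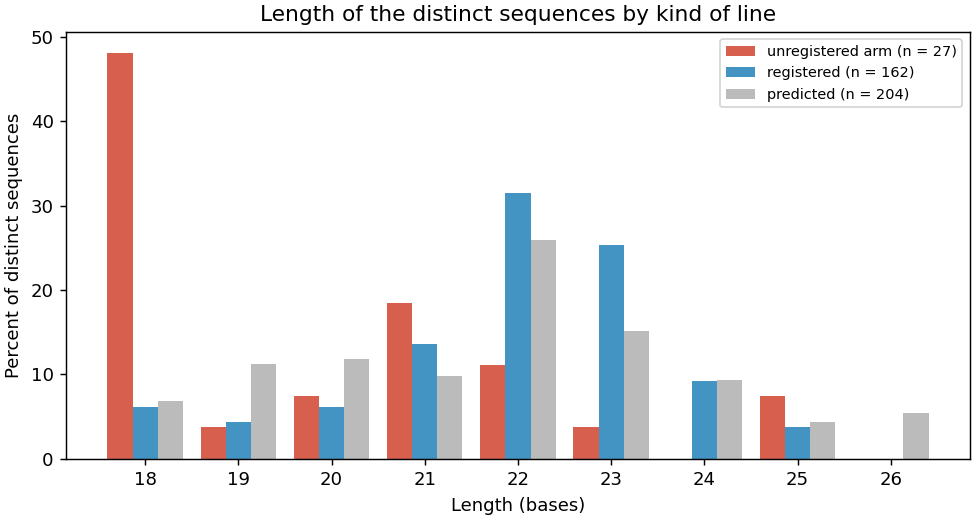
Length in bases (x axis) of the distinct sequences of each kind of line, as a percent of that kind (y axis). The 27 unregistered arm sequences peak at 18 bases with 48.1%, where the registered and predicted sequences have 6.17% and 6.86%.

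Together the lines were a trace of the hemocyte profile. On the scale of the deposited normalized counts, the 30 lines as listed held 0.0292% ± 0.00944 (SD, n = 9) of a library's total, and 0.0241% ± 0.00707 with each measurement counted once. Inferred from the step between values, a library had 7063405 to 15676183 reads over all lines. With each measurement counted once, the share was 0.0229% ± 0.00518 in LPS exosome libraries, 0.0208% ± 0.0103 in normal exosome libraries and 0.0288% ± 0.00382 in PBS libraries (SD, n = 3 each), and the ranges of the 3 groups overlapped. The summed value was 909.3, 1091 and 1097 in LPS exosome libraries, 917.1, 870.3 and 1789 in normal exosome libraries, and 1425, 1527 and 1352 in PBS libraries. All 3 LPS exosome libraries lay below all 3 PBS libraries in this sum, and normal exosomes replicate 3 was the highest of all. With the 30 lines summed as listed, LPS exosome and PBS libraries overlapped, at 1520 in LPS exosomes replicate 3 and 1471 in PBS replicate 3.

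**Figure D2:**
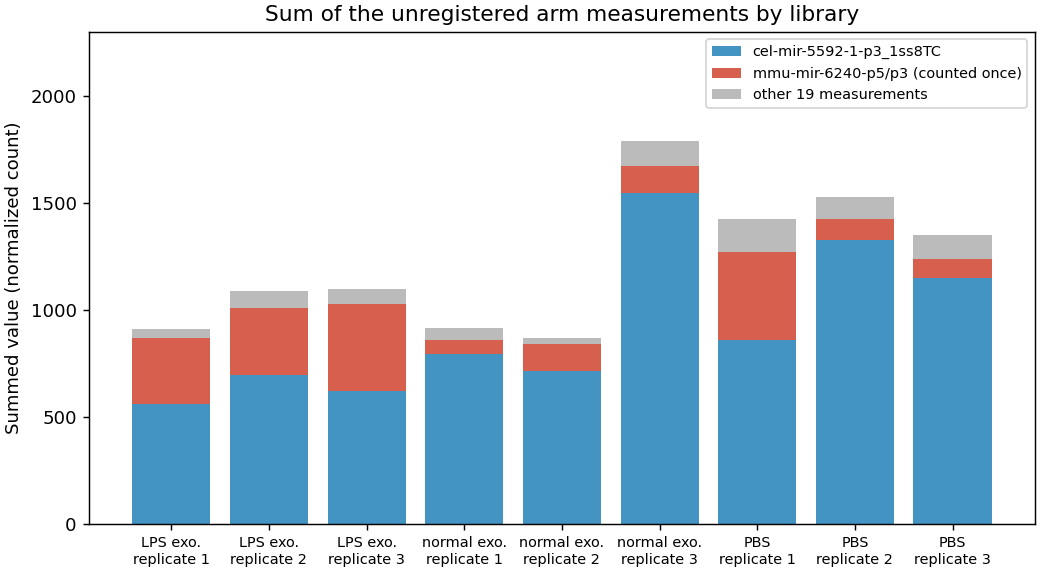
Summed normalized count of the 21 measurements (y axis, each measurement counted once) in each of 9 libraries (x axis), split into cel-mir-5592-1-p3_1ss8TC, the mmu-mir-6240 sequence and the other 19. The first 2 fill most of every bar, and the mir-6240 part is widest in the 3 LPS exosome libraries and PBS replicate 1.

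Most of this signal was 1 sequence. cel-mir-5592-1-p3_1ss8TC made up 56.7% to 86.8% of the summed measurements over the 9 libraries, and the mmu-mir-6240 sequence 6.45% to 36.9%. These were the only 2 measurements with a mean of 100 or more, and 17 of the 21 had a mean under 10. In 8 of 9 libraries the lowest value above 0 stood at 5 reads, so that 4 or fewer reads would appear as 0. Some lines had only even numbers of inferred reads and none under 10, the mir-5592, mir-9277, mir-3102 and lgi-mir-87 lines among them. A 0 of such a line may hide more than 4 reads, and whether its reads were counted like those of other lines was not tested. As listed, 11 to 15 lines were above 0 in LPS exosome libraries, 9 to 22 in normal exosome libraries and 17 to 21 in PBS libraries. The deepest library, normal exosomes replicate 3, had the most lines with 22, while the next deepest, LPS exosomes replicate 1, had 11. Of the 21 measurements, 3 were above 0 in all 9 libraries and 4 in a single library.

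**Figure D3:**
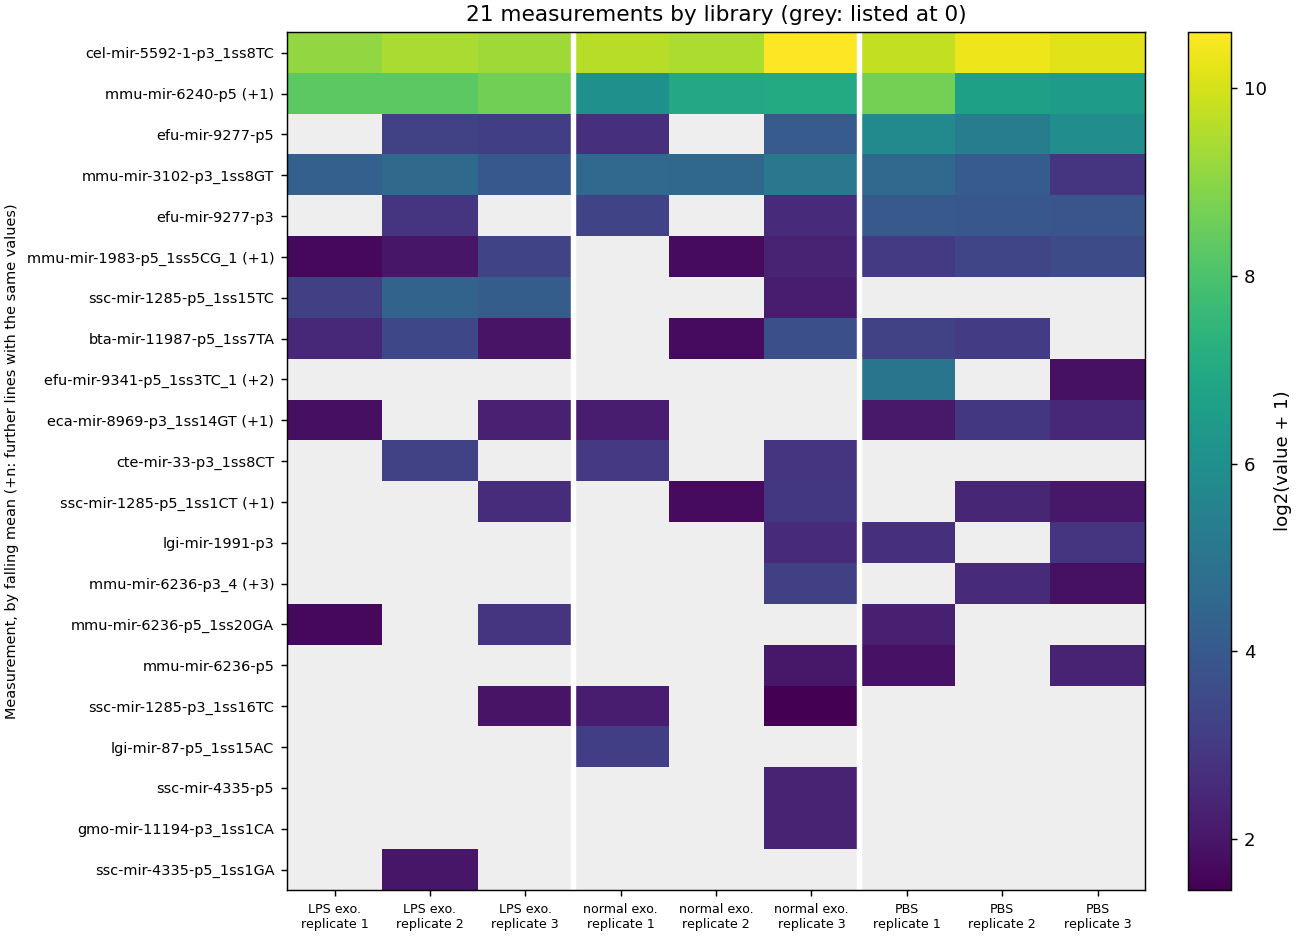
Level of each of 21 measurements (rows, by falling mean) in each of 9 libraries (columns, by group), as log2 of the normalized count plus 1. Grey cells are listed at 0; only the mir-5592, mir-6240 and mir-3102 rows have no grey cell.

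Group differences were tested with limma on log2(value + 1) over the 162 lines of the table that reached 10 in 3 or more of the 9 libraries, with Benjamini-Hochberg adjustment and a threshold of 0.05. This filter left 6 of the 30 lines, which are 5 measurements, and the other 24 lines did not reach it. None of these 6 lines passed the threshold in any comparison, against 4.32% of all tested lines called for LPS exosomes vs PBS, 4.32% for normal exosomes vs PBS and 4.32% for LPS exosomes vs normal exosomes. The efu-mir-9277-p3 line reached 10 in the 3 PBS libraries alone, and efu-mir-9277-p5 in those and 1 normal exosome library. Both thus entered the test through the group where they were high, and a lower value against PBS was favoured by the filter. At an unadjusted limma p under 0.05 there were 3, 1 and 2 of the 6 lines, against 24.1%, 16.7% and 16.0% of all lines. Limma without its trend and robust settings also called 0 of them in each comparison, against 6, 10 and 2 of all 162 lines. Both comparisons with PBS share the PBS libraries. With 6 lines, of which 2 are 1 measurement, these counts are a description, from which nothing is read.

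The mir-5592 line was the most abundant. It stood at 560.1, 694.0 and 622.2 in LPS exosome libraries, 792.2, 715.6 and 1546 in normal exosome libraries, and 860.8, 1326 and 1149 in PBS libraries. On this scale the LPS exosome libraries lay below every library of the other groups, while the normal exosome and PBS libraries overlapped. As a share of each library's total, the line held 0.0106%, 0.0152% and 0.0155% in LPS exosome libraries, 0.0125%, 0.0125% and 0.0282% in normal exosome libraries and 0.0201%, 0.0228% and 0.0229% in PBS libraries, so that LPS exosome and normal exosome libraries overlapped and LPS exosome libraries still lay below PBS. For LPS exosomes vs PBS its log2 fold change was -0.81 ± 0.31 (SE; limma adjusted p = 0.174), and for LPS exosomes vs normal exosomes it was -0.62 ± 0.31 (limma adjusted p = 0.359), which became -0.27 both at equal totals (limma adjusted p = 0.807) and without normal exosomes replicate 3 (limma adjusted p = 0.590). For normal exosomes vs PBS it was -0.19 ± 0.31 (limma adjusted p = 0.817). These levels of the line averaged 625.4 ± 67.0, 1018 ± 459 and 1112 ± 235 (SD, n = 3) in LPS exosome, normal exosome and PBS libraries. None of the 22 alternative settings brought this line past the threshold in any comparison.

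Of the 5 tested measurements, the mir-6240 sequence had the widest log2 difference between the exosome groups, which did not pass the threshold. Its values were 311.3, 314.3 and 405.2 in LPS exosome libraries, 65.8, 125.6 and 129.7 in normal exosome libraries, and 408.8, 99.3 and 87.2 in PBS libraries. The LPS exosome and normal exosome libraries did not overlap, and of the PBS libraries, replicate 1 stood at the LPS exosome level and the others at the normal exosome level. For LPS exosomes vs normal exosomes the log2 fold change was 1.73 ± 0.56 (SE), a 3.31-fold difference (limma adjusted p = 0.143). It passed in 3 of 22 alternatives: without a filter (limma adjusted p = 0.0375), with only the 2 groups in the fit (0.0337) and without PBS replicate 1 (0.0158), whose value adds to the spread shared by all groups. Over all 22 alternatives the limma adjusted p ran from 0.0158 to 0.422. For LPS exosomes vs PBS the log2 fold change was 1.16 ± 0.56 (limma adjusted p = 0.253), and without PBS replicate 1 it was 1.86 (limma adjusted p = 0.0216, the lowest of 22 alternatives, which reached 0.518). Without PBS replicate 3 it was 0.755. For normal exosomes vs PBS it was -0.57 ± 0.56 (limma adjusted p = 0.634) and turned to 0.14 without PBS replicate 1.

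The mir-9277 lines were highest in PBS. efu-mir-9277-p5 stood at 0, 8.63 and 7.93 in LPS exosome libraries, 5.67, 0 and 16.1 in normal exosome libraries, and 56.2, 38.6 and 60.9 in PBS libraries. Every exosome library lay below every PBS library, in a line that passed the filter through PBS. The log2 fold change was -3.56 ± 1.19 (SE) for LPS exosomes vs PBS and -3.42 ± 1.19 for normal exosomes vs PBS, and neither passed. The filter favoured a lower value against PBS, so no p is given for either comparison. The fitted values rest on how a value of 0 is treated, and the lowest value of this line above 0 was 10 inferred reads. At a pseudocount of 10 the fold changes were -2.03 and -1.935, and with zeros set to the value of 4 reads that for LPS exosomes vs PBS was -3.13. The line passed the threshold in these fits, which is not read as support because of the filter. Single libraries moved the fold changes as well: that for LPS exosomes vs PBS was -2.49 without LPS exosomes replicate 1, and that for normal exosomes vs PBS was -2.28 when normal exosomes replicate 2 was left out and -4.33 when replicate 3 was. Over 21 alternatives the fold changes ran from -4.12 to -2.03 for LPS exosomes vs PBS and from -4.33 to -1.935 for normal exosomes vs PBS. Between the exosome groups the log2 fold change was -0.14 ± 1.19 (limma adjusted p = 0.953), and its sign changed in 5 of 21 alternatives, equal totals among them.

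efu-mir-9277-p3 stood at 0, 6.16 and 0 in LPS exosome libraries, 9.08, 0 and 4.89 in normal exosome libraries, and 15.1, 14.3 and 13.7 in PBS libraries. As with the p5 line, every exosome library lay below every PBS library, and the PBS values alone brought the line past the filter. Its log2 fold changes were -3.0 ± 1.10 (SE) for LPS exosomes vs PBS and -1.98 ± 1.10 for normal exosomes vs PBS. Neither passed, and no p is given because of the filter. The first was -1.05 at a pseudocount of 10, -1.99 with zeros at 4 reads and -3.94 without LPS exosomes replicate 2. The second was -0.78 at a pseudocount of 10, and -2.66 and -0.995 without normal exosomes replicates 1 and 2. In the 6 libraries where both mir-9277 lines were above 0, the log2 ratio of p5 over p3 had a median of 1.57 and ran from -0.68 to 2.16. Among the 6 tested lines, 3 had LPS exosome values wholly below PBS, where 17.3% of all tested lines did so, and 2 had normal exosome values wholly below PBS, where 12.3% did so. Of these, 2 of the 3 and both of the 2 are the mir-9277 lines, which entered the test through PBS, so the counts are not read against these shares. None lay wholly above PBS, against 11.7% of all tested lines for LPS exosomes and 13.0% for normal exosomes. Between the exosome groups, 1 line was wholly lower with LPS exosomes and 2 wholly higher, against 13.0% and 12.3% of all tested lines. The 1 is the mir-5592 line, whose exosome groups overlapped as a share of the library total. The 2 are the mir-6240 pair, which is 1 measurement.

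mmu-mir-3102-p3_1ss8GT stood at 18.2, 23.4 and 14.7 in LPS exosome libraries, 22.7, 22.2 and 33.6 in normal exosome libraries, and 22.7, 16.5 and 6.30 in PBS libraries. All 3 groups overlapped. Its log2 fold changes were 0.43 ± 0.56 (SE), 0.88 ± 0.56 and -0.46 ± 0.56 for LPS exosomes vs PBS, normal exosomes vs PBS and LPS exosomes vs normal exosomes (limma adjusted p = 0.766, 0.446 and 0.682). Without PBS replicate 3, whose value was the lowest of the 9, the first of these was -0.067 and the second 0.389.

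**Figure D4:**
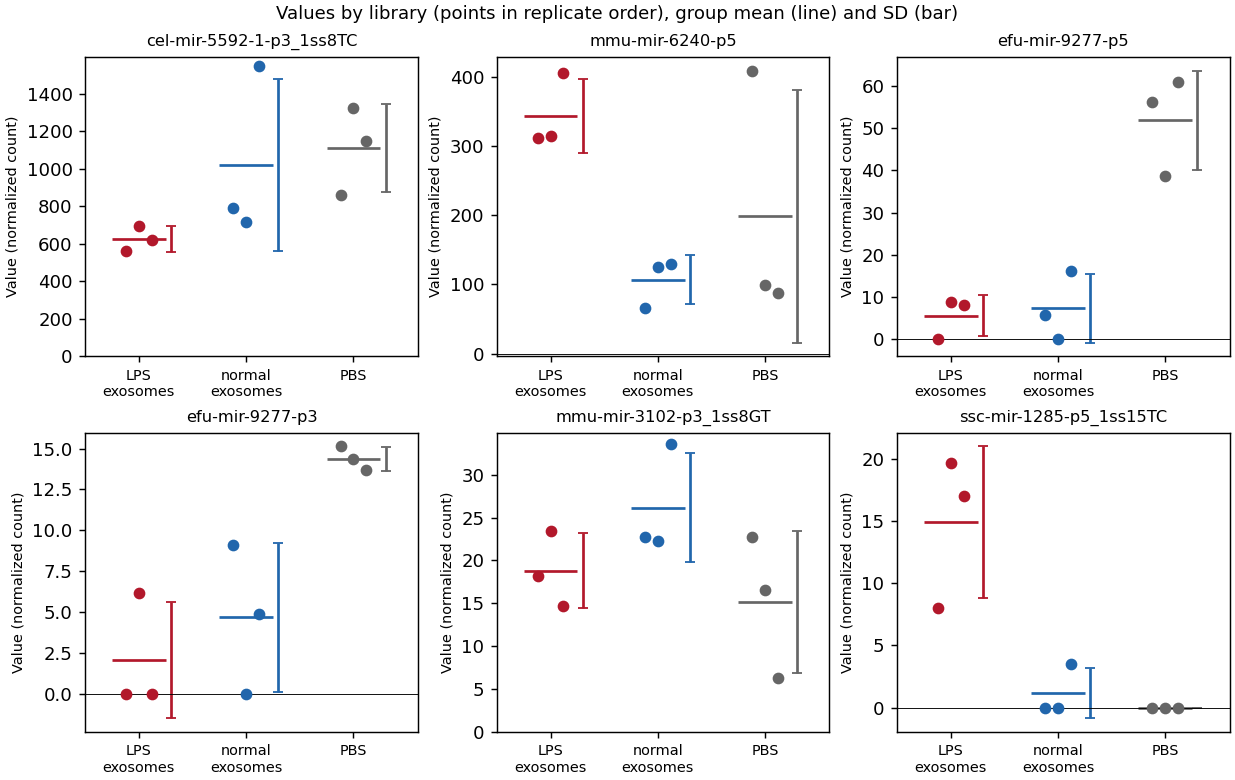
Normalized count (y axis, from its own 0 in each panel) of 6 lines in the libraries of each group (x axis; points in replicate order, line for the mean, bar for the SD, n = 3). The mir-9277 panels show every PBS point above every exosome point, and the mir-6240 panel shows PBS replicate 1 beside the LPS exosome points.

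**Figure D5:**
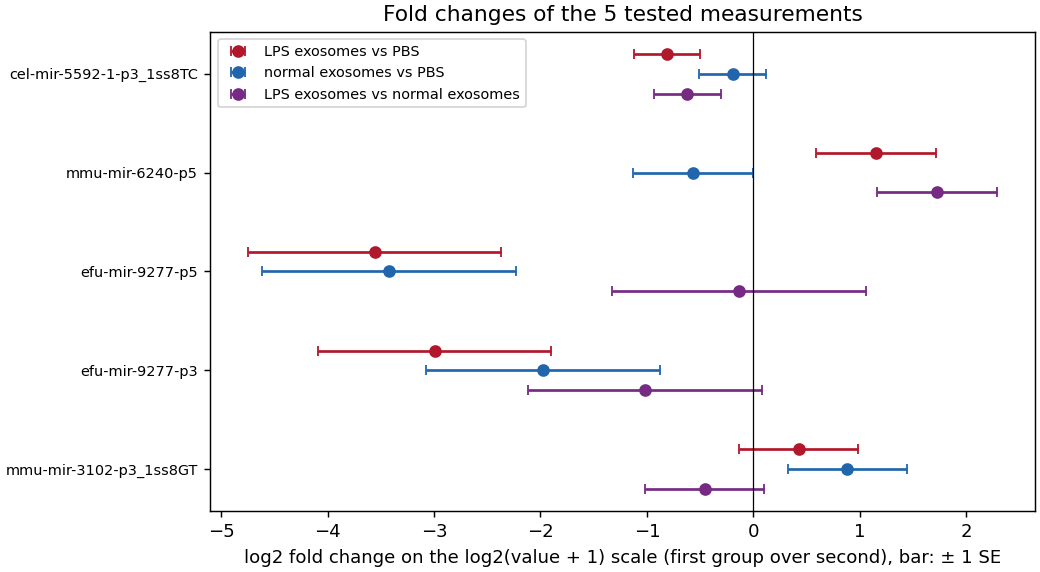
Fitted log2 fold change with 1 SE (x axis, log2(value + 1) scale, first group over second) of the 5 tested measurements (y axis) in 3 comparisons. The mir-9277 values against PBS lie between -3.56 and -1.98 with wide bars, and none of the 15 values passed the limma threshold.

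Below the filter, 16 measurements had means from 0.342 to 5.36, and their values above 0 ran from 1.75 to 30.8. Of these, 11 were above 0 in at most 3 libraries. ssc-mir-1285-p5_1ss15TC was chosen after its values were seen: it stood at 8.01, 19.7 and 17.0 in LPS exosome libraries, 0, 0 and 3.50 in normal exosome libraries, and was listed at 0 in all 3 PBS libraries. The LPS exosome libraries lay above all the others, and with PBS at 0 a fold has no meaning. Its inferred reads were all even and none was under 10, so a 0 of this line may hide more than 4 reads. It was too low for the test, and under a looser filter on the mean it would enter through the LPS exosome libraries alone, so no p is given. The other 2 mir-1285 measurements, which share the letters shown above, did not separate the groups in this way. The 22-base ssc-mir-1285-p3_1ss16TC, which contains all of its 21 bases, stood at 0, 0 and 2.83 in LPS exosome libraries, 3.40, 0 and 1.75 in normal exosome libraries, and 0 in all PBS libraries. This longer line went down to 5 inferred reads, so the floors of these nested lines may differ. The line ssc-mir-1285-p5_1ss1CT stood at 0, 0 and 5.10 in LPS exosome libraries, 0, 2.32 and 6.64 in normal exosome libraries, and 0, 4.41 and 3.15 in PBS libraries.

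mmu-mir-1983-p5_1ss5CG_1, listed with a longer form at the same values, was also chosen after its values were seen. It stood at 2.18, 3.08 and 9.07 in LPS exosome libraries, 0, 2.32 and 4.19 in normal exosome libraries, and 7.03, 9.37 and 11.03 in PBS libraries. The normal exosome libraries lay below the PBS libraries, and the LPS exosome libraries overlapped them. The mir-9341 lines were above 0 in 2 libraries, at 30.8 in PBS replicate 1 and 2.63 in PBS replicate 3. PBS replicate 1 was thus the highest PBS library for both the mir-6240 and the mir-9341 letters, at 408.8 and 30.8. Its listed reads, 7937843, were the fewest of the PBS libraries, and the part of depth in these values was not tested.

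The remaining lines were near the floor. The eca-mir-8969 sequence, listed under both arms, stood at 2.55, 0 and 3.97 in LPS exosome libraries, 3.40, 0 and 0 in normal exosome libraries, and 3.24, 6.62 and 4.73 in PBS libraries. The 4 mir-6236 lines with the same values, mmu-mir-6236-p3_1 to p3_4, were at 0 in all LPS exosome libraries, at 8.04 in normal exosomes replicate 3 alone of its group, and at 0, 4.96 and 2.63 in PBS libraries. mmu-mir-6236-p5 stood at 3.15 in normal exosomes replicate 3 and at 2.70 and 4.20 in PBS replicates 1 and 3, while mmu-mir-6236-p5_1ss20GA stood at 2.18 and 6.23 in LPS exosomes replicates 1 and 3 and at 3.78 in PBS replicate 1. Since a 0 may hide 4 or fewer reads and 4 of these lines share their values, nothing is read from which libraries held which mir-6236 line. A single library held each of gmo-mir-11194-p3_1ss1CA and ssc-mir-4335-p5, at 4.19 in normal exosomes replicate 3, and ssc-mir-4335-p5_1ss1GA, at 3.08 in LPS exosomes replicate 2. Both mir-4335 sequences end in CCA.

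The lines with a mollusc or annelid prefix were above 0 in few libraries. lgi-mir-87-p5_1ss15AC was above 0 only in normal exosomes replicate 1, at 7.94, where mle-miR-87-3p_1ss21TG stood at 3543. The log2 ratio of both was -8.80 in that library. lgi-mir-1991-p3 was at 0 in all LPS exosome libraries, at 4.89 in normal exosomes replicate 3 and 0 in the other normal exosome libraries, and at 5.41, 0 and 6.30 in PBS libraries. Its registered partner hru-miR-1991_1ss11TA was above 0 only in normal exosomes replicate 3, at 7.69. miR-33, whose hairpins lie within sterol regulatory genes in vertebrates, was present by its cte-mir-33-p3_1ss8CT arm at 8.63 in LPS exosomes replicate 2, 6.81 in normal exosomes replicate 1 and 6.29 in normal exosomes replicate 3, and at 0 elsewhere. With at most 3 libraries above 0, group differences of these arms were not tested.

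Registered lines of the same hairpin numbers were 6, of which 2 were tested and 0 called by limma in any comparison, against 4.32% of all tested lines in each. At an unadjusted limma p under 0.05 there was 1 for LPS exosomes vs PBS, 1 for normal exosomes vs PBS and 0 for LPS exosomes vs normal exosomes. The shares of all tested lines were 24.1%, 16.7% and 16.0%, and with 2 lines nothing is read from these counts. bta-miR-11987_L-1_1ss8TA stood at 84.5, 78.9 and 47.0 in LPS exosome libraries, 45.4, 28.3 and 53.5 in normal exosome libraries, and 22.2, 18.2 and 33.1 in PBS libraries. Every LPS exosome library lay above every PBS library, as in 11.7% of all tested lines. The log2 fold change was 1.48 ± 0.42 (SE), which did not pass (limma adjusted p = 0.0784). Its shorter form bta-mir-11987-p5_1ss7TA stood at 4.73, 9.86 and 2.83 in LPS exosome libraries, 0, 2.32 and 11.9 in normal exosome libraries, and 8.65, 7.17 and 0 in PBS libraries. In the 7 libraries with both forms, the log2 ratio of the shorter over the longer had a median of -3.0 and ran from -4.16 to -1.34. mle-miR-87-3p_1ss21TG had log2 fold changes of 0.35 ± 0.20 for LPS exosomes vs PBS and 0.72 ± 0.20 (SE) for normal exosomes vs PBS (limma adjusted p = 0.367 and limma adjusted p = 0.0764).

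No miRNA that defines bivalve hemocytes is known with certainty, so the cell type was not checked by a marker of its own. Registered lines of miR-1 and miR-133, known from muscle, held 2.83% to 4.20% of the signal over the 9 libraries. Those of miR-7, miR-9 and miR-124, known from neural tissue, held 0.00378% to 0.0158%, and the part of other cells in the results above was not tested. In bulk samples, fewer cells of a type and less RNA per cell cannot be told apart.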

How the data were processed

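Per the labels' protocols, 9 libraries were prepared from total RNA by a TruSeq small RNA protocol for Illumina sequencing, and the ACGT101-miR program filtered out adapter dimers, low-quality sequence, repeats and the reads of structural RNA families (tRNA and rRNA among them). The deposited table gives 1 signal per line and library, which the deposited file headers call normalized counts; how they were normalized, the aligner, the build and the miRBase version are not stated in those sources. Of 1990 values above 0, 99.5% were whole multiples of 1 step per library within 0.01 reads, from which reads were inferred.

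Group differences were tested in 1 limma model (limma 3.58.1 in R 4.3.3, eBayes with a trend and robust, with statmod 1.5.0) of 3 group means on log2(value + 1), with 6 residual degrees of freedom. Of 417 lines, the 162 that reached 10 in 3 or more libraries were tested, and they held 99.99% of the signal. The fit was tested on simulated data. Lines were called measurements of their own unless a line of the same hairpin number had the same values in every library. Overlaps were exact matches of at least 10 bases at sequence ends, or containment. Duplexes came from RNAduplex (ViennaRNA 2.7.2), other steps from Python 3.11.15. No permutation test was used, since the smallest exact p for 3 against 3 libraries is 0.1.

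The lines and lists were chosen with earlier results of these data known. Lines were named by rule: called lines, the next by p, the tested lines of highest mean, and those with the widest ratio of group means; 2 lines singled out beside these are marked as chosen after their values were seen, and the rest follow in full. Alternatives covered scaling, filter, pseudocount, zeros, variance model, block, groups in the fit, repeated sequences and each library left out.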

Additional observations from a re-analysis of the deposited data

How the results depend on the processing

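The count of unregistered arm lines called was 0 in every comparison and changed under few settings. For LPS exosomes vs PBS it was 1 with a mean of 5 or more as the filter, against 8 of all 187 lines tested. That line, ssc-mir-1285-p5_1ss15TC, met the filter through the LPS exosome libraries alone. The count was also 1 at a pseudocount of 10 and 1 when a 0 was given the value of 4 reads, against 10 of all 162 lines each time. Both times it was efu-mir-9277-p5, which passed the filter through PBS, favouring a lower value. With each library left out the count was 0 to 2, the 2 being the mir-6240 pair without PBS replicate 1 (12 of all 162). For normal exosomes vs PBS it was 1 at a pseudocount of 10 (again efu-mir-9277-p5), against 8 of all 162 lines. It was 0 with each library left out (2 to 8 of all lines). For LPS exosomes vs normal exosomes it was 2 without a filter (10 of all 417 lines). It was 2 with only the 2 groups compared (8 of 162), and 0 to 2 with each library left out. Each 2 was the mir-6240 pair (1 measurement), the last without PBS replicate 1 (10 of 162). The replicate block gave 0 in each comparison, against 7, 3 and 8 calls over all lines (7, 7 and 7 without it). Deviations of same-numbered libraries correlated at 0.002 to 0.29 where 1 of the 2 was a PBS library, and at -0.30 to -0.003 between the exosome groups. In 8 of 18 cases a library was highest with its own number. With 3 libraries per group, these values cannot decide whether the replicate numbers pair the libraries.

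Some log2 fold changes changed sign. With each library left out, mmu-mir-3102-p3_1ss8GT in LPS exosomes vs PBS ran from -0.067 (without PBS replicate 3) to 0.782. In normal exosomes vs PBS, the mir-5592 line was 0.068 under quantile normalization and ran from -0.539 to 0.016 (without normal exosomes replicate 2), and the mir-6240 line ran from -0.971 to 0.137 (without PBS replicate 1). efu-mir-9277-p5 in LPS exosomes vs normal exosomes was 0.14 at equal totals, 0.13 under quantile normalization, 0.94 without LPS exosomes replicate 1, and for the normal exosome group 0.10 without replicate 1, 0.77 without replicate 3 and -1.274 without replicate 2. Over all tested lines, the median log2 fold change at equal totals was 0.16 for LPS exosomes vs normal exosomes (-0.15 as deposited), 0.07 for LPS exosomes vs PBS (-0.06) and -0.22 for normal exosomes vs PBS (0.00).

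With each sequence once, the share of signal was 0.0231% in LPS exosome libraries, against 0.0307% as listed; with each library left out, shares as listed ran from 0.0271% to 0.0345% there, 0.0165% to 0.0266% with normal exosomes and 0.0290% to 0.0369% with PBS. At a common depth floor the mean number of lines above 0 was 10 in LPS exosome, 10.3 in normal exosome and 15 in PBS libraries, against 12.7, 14 and 18.3 as listed, and with each sequence once it was 15.7 in PBS libraries. With zeros set to 4 reads, the median log2 arm ratio was 0.00 for miR-1991, which follows from both lines being at 0 in 6 of 9 libraries. For miR-87 it was -10.33, with the arm at 0 in 8 of 9. Both ratios rest on the 4 reads put in place of 0, and a 0 of these arms may hide more. The count tests edgeR and DESeq2 were planned and not run, because the table holds normalized values. The causes of these changes, and what limits the 24 untested lines (means of at most 5.36), were not tested.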
